A study of Mus musculus with 2 samples.

Results

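The 2 ligands BAFF (gene Tnfsf13b) and APRIL (Tnfsf13) and their 3 receptors TACI (Tnfrsf13b), BAFF-R (Tnfrsf13c) and BCMA (Tnfrsf17) were followed across the leukocytes of pancreatic islets. The 5 genes were taken by symbol from the 32285 genes counted, and all 5 were found. The cells came from females aged 12 weeks, either NOD mice, which become diabetic through autoimmunity, or NOD mice labelled as lacking the chemokine gene Cxcl16 (NOD.Cxcl16-/-). Islets were picked by hand after perfusion of the pancreas with collagenase and were dispersed without enzymes. Live CD45+ CD31- cells, which are leukocytes and not endothelium, were sorted and run as 1 droplet library per genotype. The labels give neither the number of animals behind each library nor the part of Cxcl16 that was removed. Cxcl16 transcript was counted in both libraries, at 74.3 CPM (UMIs per 1000000 UMIs) in WT NOD and 98.6 CPM in the other, over all kept cells. A transcript counted from its 3' end may lie outside the deleted part, so this count does not check the genotype, and the second sample is called the library labelled NOD.Cxcl16-/-.

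BAFF and APRIL are members of the tumour necrosis factor family, made mainly by myeloid cells. BAFF-R binds BAFF and carries the survival signal of mature B cells, TACI binds both ligands and restrains as well as helps antibody responses, and BCMA binds APRIL with high affinity and serves long-lived plasma cells. All of these receptors signal through TRAF adaptors, and BAFF-R in particular acts through the noncanonical NF-kB pathway.

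After removal of poor barcodes and likely doublets, 10716 WT NOD cells and 9323 cells of the library labelled NOD.Cxcl16-/- were kept, with a median of 3850 and 4894 unique molecules (UMIs) per cell. Cells were assigned to 7 lineages by fixed marker genes, and to finer gates within the T, B, plasma and myeloid lineages; 9292 and 8184 cells were assigned to 1 lineage. A cell passing both the B-cell and plasma gates counted as plasma, and one passing the gate of plasmacytoid dendritic cells (pDC) and the plasma or myeloid gate counted as pDC. Cells passing the T gate and that of natural killer (NK) or innate lymphoid cells counted as T, and those passing the latter 2 as NK. Cells passing the NK and myeloid gates counted as NK if Ncr1 or Klrb1c had a UMI, and otherwise as myeloid. Other cells with markers of more than 1 lineage were left out of the gates. They were 6.65% of kept WT NOD cells, with a median of 2747 UMIs, and 8.52% of the other library, with a median of 15847.5 UMIs. The libraries shared 45 barcodes. Levels are CPM of a gene within the UMIs of a gate, with exact 95% Poisson intervals in brackets. For a gate with 0 UMIs, the level it is said to allow is the CPM that 3 UMIs would give. That limit is lower than the upper end of the exact interval. Shares of cells have exact Clopper-Pearson intervals. With 1 library per genotype no difference between genotypes could be tested, and every interval covers counting error only, not the difference between animals. A gene is called higher or lower between libraries when the ratio of CPM + 1 passes 1.5-fold and the gene has at least 50 UMIs over both libraries. The share of all genes called by the same rule in the same gate is given beside the calls.

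Promoter windows of 300 bases, from 250 before to 50 after a gene's start, were read from RefSeq (GRCm38.p6) for all 5 genes, with 6 windows because Tnfsf13b has 2 starts. They were searched on both strands for 2 copies of GAAA with 2 free bases between them, a pair of sites bound by interferon regulatory factors, for GAGGAA, the core bound by PU.1, and for GGG and CC with 5 free bases between them, an NF-kB-like motif. Overlapping matches were counted. The interferon-factor pair was found in 2 of the 6 windows, that of the downstream Tnfsf13b start and that of Tnfrsf17, against 3.44% of 32851 mouse promoter windows. The PU.1 core was found in the Tnfrsf17 window alone among the 6, against 28.3% of all windows. The NF-kB-like motif was found in the Tnfrsf13b, Tnfsf13 and Tnfrsf13c windows, against 50.8% of all windows. Both windows with the rarer pair are shown, because they belong to the ligand whose level differed most between the libraries and to the receptor with the narrowest range of cells. Capitals mark the matches; the first window lies at chr8:10006383-10006682 and the second at chr16:11313559-11313858, both on the plus strand.
Tnfsf13b: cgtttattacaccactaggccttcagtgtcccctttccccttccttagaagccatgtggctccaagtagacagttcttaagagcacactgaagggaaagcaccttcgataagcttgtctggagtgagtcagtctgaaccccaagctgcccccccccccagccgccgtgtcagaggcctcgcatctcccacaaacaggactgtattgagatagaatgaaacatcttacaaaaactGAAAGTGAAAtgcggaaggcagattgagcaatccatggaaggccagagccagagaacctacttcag
Tnfrsf17: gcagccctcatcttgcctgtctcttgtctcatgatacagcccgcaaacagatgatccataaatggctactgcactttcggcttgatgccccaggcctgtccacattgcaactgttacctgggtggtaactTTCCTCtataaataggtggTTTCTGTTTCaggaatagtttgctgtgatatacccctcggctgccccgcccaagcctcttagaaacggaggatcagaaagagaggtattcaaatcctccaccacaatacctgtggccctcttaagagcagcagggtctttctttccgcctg
The Tnfsf13b window holds 1 match, which reads as the motif on the printed strand. The Tnfrsf17 window holds 1 PU.1 core and 1 interferon-factor pair, both on the opposite strand. A match says only that these letters are present.

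Macrophages held the highest BAFF level of any gate in both libraries, and the level was higher in the library labelled NOD.Cxcl16-/-. Tnfsf13b (ENSMUSG00000031497, chr8:10006467-10039072, plus strand, GRCm38) had 30 UMIs in 13 of 83 WT NOD macrophages, a level of 36.6 CPM [24.7-52.3]. In the library labelled NOD.Cxcl16-/- it had 164 UMIs in 72 of 186 macrophages, a level of 83.6 CPM [71.3-97.5]. The 2 intervals did not overlap. The log2 ratio of the library labelled NOD.Cxcl16-/- over WT NOD was 1.17, with a counting interval of 0.62 to 1.81. Of 5436 genes tested in macrophages, 7.62% were called higher and 7.49% lower, and the median log2 ratio over these genes was -0.04.

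The difference was spread over many cells. The highest count in a single macrophage was 6 in WT NOD and 11 in the library labelled NOD.Cxcl16-/-, and the share of macrophages with a Tnfsf13b UMI went from 15.7% to 38.7%. Median depth was close in both, at 10018 and 9431.5 UMIs per macrophage. With each cell thinned to 2000 UMIs, which left out 13 and 22 shallower cells, a UMI was found in 4.29% of 70 macrophages [0.893-12.0] and in 16.5% of 164 [11.1-23.0]. B cells, which make little BAFF, gave a background of 0.569% at a median of 4458.5 UMIs and 1.29% at 4571 UMIs without thinning.

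Other transcripts moved in the same macrophages. Cxcl16 fell from 881 to 519 CPM, and the summed level of 4 classical monocyte markers went from 259.9 to 96.9 CPM, with Chil3 at 0 in both libraries. Immunoglobulin and T-cell receptor transcripts went from 538 to 1324 CPM. The 6 T-cell markers, all detected in both libraries, summed to 67.1 and 52.0 CPM, and the 8 plasma markers, also all detected, to 174 and 215 CPM. The 6 B-cell markers summed to 51.2 and 31.1 CPM, with Pax5 at 0 in both and Ms4a1 at 0 in WT NOD. The part these played in the BAFF difference was not tested.

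The other myeloid gates had little BAFF. Dendritic cells are professional antigen-presenting cells, and their conventional type 1 (cDC1) had 5.86 and 10.1 CPM, from 4 and 11 UMIs. Conventional type 2 cells (cDC2) had 4.49 and 6.13 CPM, and migratory dendritic cells, which carry Ccr7, had 1.82 and 1.98 CPM. Macrophages were 6.24-fold [2.20-24.4] above cDC1 in WT NOD and 8.26-fold [4.49-16.9] above them in the other library. The 20 and 19 classical monocytes had 4 and 1 UMIs, or 22.8 CPM [6.20-58.3] and 4.38 CPM [0.111-24.4]; in WT NOD this interval overlaps that of macrophages. Myeloid cells placed in no finer gate, because they passed none or tied between gates, had 2.23 and 2.73 CPM. Their leading genes were Ifitm1, Ppp1r14a and Pak1. The pDC, known as interferon producers, had 3.74 CPM from 3 UMIs and 11.0 CPM from 15 UMIs. Over all myeloid cells the level was 8.46 and 18.9 CPM, with a log2 ratio of 1.07 where 3.08% of all genes tested were called higher. Macrophages were 83 of 558 and 186 of 856 myeloid cells, so this total mixes the level per macrophage with their number.

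**Figure D1:**
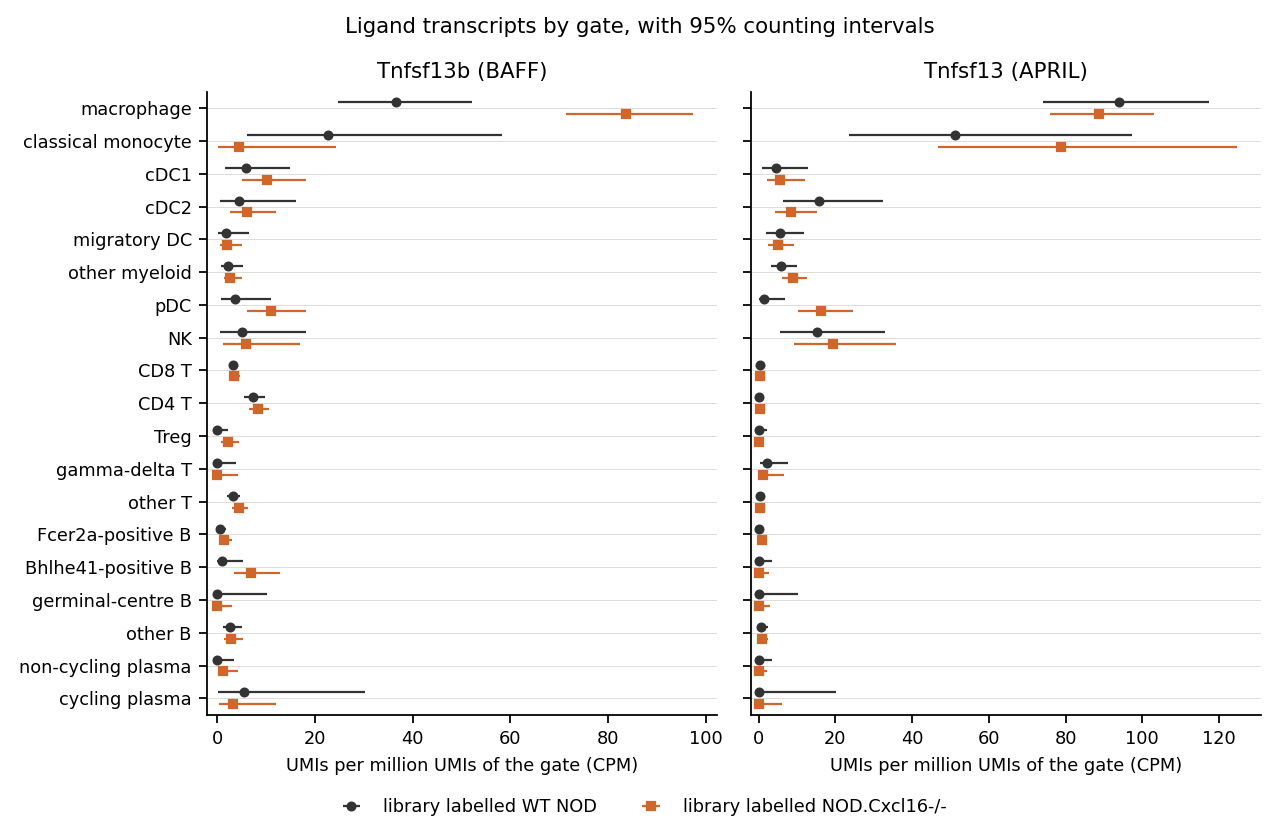
Level of each ligand in CPM (horizontal axis) by gate, for the library labelled WT NOD (dark circles) and the library labelled NOD.Cxcl16-/- (orange squares); bars are 95% counting intervals, and classical monocytes rest on 20 and 19 cells. BAFF in macrophages was 36.6 and 83.6 CPM, APRIL in macrophages 94.0 and 88.7 CPM, and no lymphocyte gate reached 10 CPM of BAFF.

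CD4 T cells had BAFF at a low level that was above that of B cells. T cells, which were 6713 and 4968 of the kept cells, held 57.0% of BAFF UMIs in WT NOD and 21.1% in the library labelled NOD.Cxcl16-/-, where macrophages held 22.4%. CD4 T cells had 7.41 CPM [5.53-9.72] and 8.46 CPM [6.58-10.7], from 52 and 69 UMIs. CD8 T cells had 3.25 CPM [2.43-4.25] and 3.54 CPM [2.56-4.77], from 53 and 43 UMIs. CD4 cells were 2.28-fold [1.53-3.41] above CD8 cells in WT NOD and 2.39-fold [1.61-3.58] above them in the other library, although CD8 cells were sequenced more deeply, at a median of 4549 against 4134 UMIs and 5568 against 4626 UMIs. Thinned to 2000 UMIs, 1.22% and 1.77% of CD4 cells and 0.603% and 0.485% of CD8 cells had a UMI, against 0.2503% and 0.514% of B cells. In the library labelled NOD.Cxcl16-/- the thinned CD8 share was thus no higher than this background, and the CPM interval of CD8 cells overlapped that of B cells, at 2.53 CPM [1.68-3.66]. Regulatory T cells, gated by Foxp3, had 0 UMIs in 269 WT NOD cells, which allows up to 1.75 CPM, and 7 UMIs in 412 cells of the other library, or 2.20 CPM [0.883-4.53]. Gamma-delta T cells had 0 UMIs in both libraries, which allows up to 3.20 and 3.53 CPM. Neither CD4 nor CD8 T cells differed between the libraries beyond counting error, with log2 ratios of 0.17 and 0.10. The rule called 1.65% of all genes higher in CD4 cells and 2.13% in CD8 cells. Among B cells, those with Bhlhe41, a transcription factor of B-1 cells, had 1 BAFF UMI in 160 WT NOD cells and 10 UMIs in 10 of 193 cells of the other library, or 0.945 CPM [0.0239-5.26] and 7.02 CPM [3.37-12.9].

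APRIL, the ligand of TACI and BCMA, was also highest in macrophages among the gates, but there it did not differ between the libraries beyond counting error. Tnfsf13 (ENSMUSG00000089669, chr11:69682846-69685784, minus strand) had 77 UMIs in 35 of 83 WT NOD macrophages, a level of 94.0 CPM [74.1-117]. It had 174 UMIs in 75 of 186 macrophages of the library labelled NOD.Cxcl16-/-, a level of 88.7 CPM [76.0-103]. The log2 ratio was -0.08, with a counting interval of -0.48 to 0.32. Thinned shares were 15.7% and 14.0%. The macrophages with APRIL and those with BAFF were partly the same cells, as 9 of 83 and 36 of 186 had UMIs of both, 26 and 39 had APRIL alone, and 4 and 36 had BAFF alone. The share of macrophages with APRIL was 42.2% and 40.3%.

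Classical monocytes were close to macrophages for APRIL, at 51.2 CPM [23.4-97.3] in WT NOD and 78.9 CPM [46.7-125] in the other library. Macrophages were 1.83-fold [0.917-4.16] and 1.13-fold [0.691-1.94] above them, which is within counting error. Every finer myeloid gate with at least 30 cells in each library was below macrophages, from 4.40 CPM (cDC1) to 15.7 CPM (cDC2) in WT NOD and from 4.95 CPM (migratory dendritic cells) to 8.996 CPM (cells of no finer gate) in the other library. NK cells, cytotoxic innate lymphocytes, had 15.1 CPM [5.53-32.8] and 19.4 CPM [9.30-35.7], from 6 and 10 UMIs. Cxcl16, at 490 and 353 CPM over all myeloid cells, was at 60.3 and 103 CPM in the NK gate. The part of myeloid transcripts in the NK count of APRIL was not tested. APRIL was close to absent from CD4 T cells, with 0 UMIs in 1270 WT NOD cells and 2 in 1283 of the other library. The exact lower limit of the fold of macrophages over CD4 T cells in WT NOD was 174.5. Plasma cells had 0 UMIs of APRIL in both libraries, which allows up to 2.42 and 1.29 CPM.

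The pDC had 1 UMI of APRIL in 84 WT NOD cells and 22 in 94 cells of the library labelled NOD.Cxcl16-/-. Of these 22 UMIs, 11 came from a single cell, and after thinning no pDC had an APRIL UMI in either library. The 9 myeloid markers summed to 8936 and 12057 CPM in this gate, all of them detected, and Lyz2 in the pDC that do not pass the plasma-cell marker rule was 128 and 2090 CPM; the part of myeloid transcripts in the APRIL count was not tested. Tnfsf13 also overlaps 2 annotated genes. Tnfsf13os runs antisense over it and is counted separately, and the readthrough gene Tnfsfm13 shares its strand and is not among the genes counted. Cxcl16 lies on the same chromosome, 768 kb from Tnfsf13 and 9305 kb from the TACI gene Tnfrsf13b. Whether the libraries differ in sequence around Cxcl16 was not tested.

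Over all kept cells BAFF was at 4.08 and 9.56 CPM and APRIL at 3.496 and 8.31 CPM. This total mixes the level per cell with the number of cells in each gate, as macrophages were 83 of 10716 and 186 of 9323 kept cells. Cells with markers of more than 1 lineage held 12.2% of BAFF UMIs in WT NOD and 43.8% in the library labelled NOD.Cxcl16-/-, and 29.4% and 52.4% of APRIL UMIs. For receptors these shares were 9.80% and 25.2% (TACI), 6.83% and 19.1% (BAFF-R) and 17.5% and 42.0% (BCMA). The genes leading these cells included C1qc, C1qa, C1qb, Apoe, Ms4a7 and Lyz2, which also led macrophages. Cxcl13 and Cxcl2, which were not among the leading genes of macrophages, led them too. When these cells were counted with their leading lineage, the log2 ratio of BAFF was 1.06 in macrophages. It was then 0.98 in all T cells, where it had been 0.26 without them. The part of macrophage transcripts in that T-cell value was not tested.

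**Figure D2:**
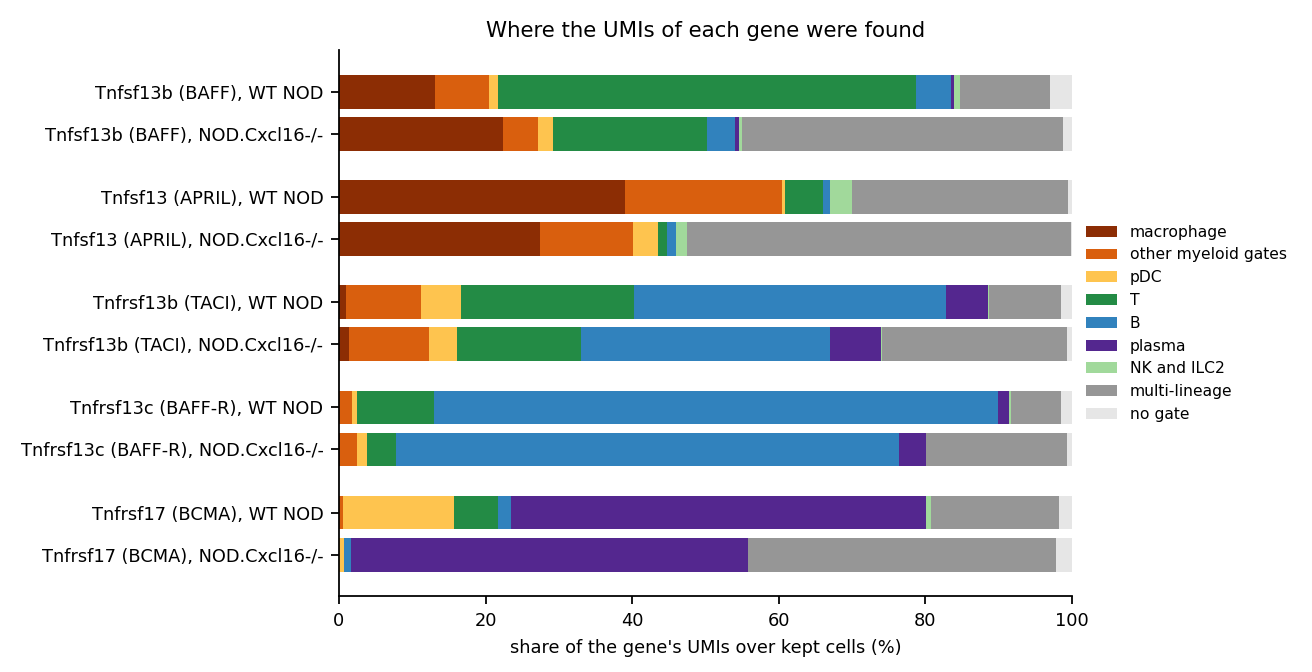
Share of each gene's UMIs (horizontal axis, percent of the UMIs over kept cells) found in each gate, one bar per gene and library. T cells held 57.0% of BAFF UMIs in WT NOD and 21.1% in the library labelled NOD.Cxcl16-/-, B cells held 77.0% and 68.7% of BAFF-R UMIs, and cells with markers of more than 1 lineage held a larger share of every gene in the library labelled NOD.Cxcl16-/-.

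BAFF-R was at 199 to 263 CPM in every B-cell gate, and over all B cells that level did not differ between the libraries beyond counting error. Tnfrsf13c (ENSMUSG00000068105, chr15:82221743-82224369, minus strand) had 1984 UMIs in 1031 of 1758 WT NOD B cells, a level of 233 CPM [223-244]. It had 2688 UMIs in 1264 of 2020 B cells of the library labelled NOD.Cxcl16-/-, a level of 243 CPM [234-252]. The log2 ratio was 0.06, with an interval of -0.03 to 0.14. Of the 10068 genes tested in B cells, 3.75% were called higher and 1.91% lower. Thinned shares were 36.9% and 36.6%. T cells, which should lack most of it, had a UMI in 3.52% and 2.72% of cells at a median of 3770 and 4608 UMIs, against 58.6% and 62.6% of B cells at 4458.5 and 4571 UMIs.

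Among B-cell gates, those with Fcer2a (CD23, a marker of follicular B cells) had 238.4 and 249.9 CPM, and germinal-centre B cells had 224 and 222 CPM. B cells with Bhlhe41 had 199 CPM [173-228] in WT NOD and 263 CPM [237-291] in the other library. They were thus below Fcer2a-positive cells in WT NOD, at 0.836-fold [0.717-0.972], and within counting error of them in the other library, at 1.05-fold [0.936-1.19]. The log2 ratio between libraries in Bhlhe41-positive cells was 0.40, with a counting interval of 0.15 to 0.65, which does not pass 1.5-fold; 5.32% of genes in this gate were called higher.

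BAFF-R was also counted in the plasma-cell gate, at a higher level in the library labelled NOD.Cxcl16-/-. Its level was 31.4 CPM [22.3-43.0] in 60 WT NOD plasma cells and 62.3 CPM [52.5-73.3] in 103 cells of the other library, which is 0.135-fold and 0.256-fold the B-cell level. The log2 ratio of 0.96 passed 1.5-fold, as did 23.9% of the 4251 genes tested in plasma cells, whose median was 0.26. Immunoglobulin and T-cell receptor genes together held 485185 and 423512 CPM in plasma cells, which dilutes every other gene on this scale. Leaving those genes out of the total gave 61.0 and 108 CPM, a log2 ratio of 0.81. With doublets kept the ratio was 0.56, and with the mean of each cell's CPM 0.53, both under 1.5-fold. The 6 B-cell markers, all detected in this gate in both libraries, summed to 769 and 853 CPM. The part of B-cell transcripts in the BAFF-R level was not tested. Part of the gate was dividing. Cycling plasma cells were 6 in WT NOD and 20 in the other library and had 54.4 CPM [26.1-100] and 121 CPM [94.9-152], against 27.4 and 41.7 CPM in non-cycling ones. In the 54 and 83 non-cycling plasma cells the log2 ratio was 0.59, with an interval of -0.04 to 1.28, and 11.2% of genes were called higher; 6 of the alternatives put this ratio under 1.5-fold, down to 0.12.

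T cells had BAFF-R at 7.85 CPM in WT NOD and 4.73 CPM in the library labelled NOD.Cxcl16-/-, for a log2 ratio of -0.63 that passed 1.5-fold as 1.83% of genes did in the lower direction. It was -0.56 with doublets kept, -0.38 with cells thinned to 2000 UMIs and -0.16 with cells of more than 1 lineage counted in, all under 1.5-fold. T cells in none of the CD4, CD8, regulatory and gamma-delta gates had 9.68 and 4.10 CPM, a log2 ratio of -1.07. In this remainder 2.84% of genes were called lower, and the ratio was -0.39 when thinned. It includes cells with UMIs of both Cd4 and a Cd8 gene as well as cells with neither. CD8 T cells had 9.43 and 7.004 CPM and CD4 T cells 2.85 and 2.33 CPM. The summed level of 6 B-cell markers in CD8 T cells moved the same way, from 44.5 to 16.8 CPM, with all 6 detected in both libraries; its part in the result was not tested. Macrophages had 1 and 5 BAFF-R UMIs, or 1.22 and 2.55 CPM, and cDC2 had 13.5 and 13.8 CPM. Over the 21 gates with at least 30 cells in each library, larger gates and their parts both counted, BAFF-R had enough UMIs in 13. It was called higher in 3, all plasma cells, the non-cycling ones and pDC, where 23.9%, 11.2% and 10.3% of all genes were too. It was called lower in 2, all T cells and those of no finer gate, where 1.83% and 2.84% of all genes were.

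TACI was above the level of CD8 T cells in B cells, plasma cells, pDC, dendritic cells, macrophages, classical monocytes and CD4 T cells. The WT NOD level of classical monocytes rests on 13 UMIs in 20 cells. Tnfrsf13b (ENSMUSG00000010142, chr11:61126755-61149372, plus strand) had 952 UMIs in 642 of 1758 WT NOD B cells, or 112 CPM [105-119], and 1040 UMIs in 712 of 2020 B cells of the other library, or 94.0 CPM [88.3-99.8]. The log2 ratio was -0.25 [-0.38 to -0.12], a difference beyond counting error but under 1.5-fold. Plasma cells had 102 CPM [85.3-122] and 91.0 CPM [79.2-104], close to B cells on this scale. With immunoglobulin and T-cell receptor genes left out of the total, plasma cells had 199 and 158 CPM and B cells 113 and 95.01 CPM. TACI was detected in 68.3% and 81.6% of plasma cells, which have a median of 22482 and 24511 UMIs.

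Within B cells TACI was 111 and 90.7 CPM in Fcer2a-positive cells and 129 and 119 CPM in Bhlhe41-positive cells. Bhlhe41-positive cells were 1.17-fold [0.955-1.41] above Fcer2a-positive ones in WT NOD and 1.31-fold [1.09-1.57] above them in the other library. Germinal-centre B cells had 51 UMIs in 41 cells, or 141 CPM [105-186], and 89 UMIs in 80 cells, or 71.7 CPM [57.6-88.3]. This log2 ratio of -0.97 was called lower, as were 13.6% of genes in that gate. A single WT NOD cell held 16 of the 51 UMIs, and with each cell thinned to 2000 UMIs the log2 ratio was 0.02.

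In pDC, TACI was at 151 CPM [125-180] in WT NOD and 85.4 CPM [70.6-102] in the library labelled NOD.Cxcl16-/-, for a log2 ratio of -0.81, where 8.5% of genes were called lower. The WT NOD level was 1.35-fold [1.11-1.63] that of B cells, and the other library's was 0.909-fold [0.744-1.10]. Thinned shares of pDC with a UMI were 23.0% [14.0-34.2] and 21.1% [13.2-31.0], and the log2 ratio of thinned counts was -0.22. It was -0.56 with 1 more marker needed per lineage and -0.55 with the mean of each cell's CPM, so these 3 alternatives put it under 1.5-fold. In the pDC that do not pass the plasma-cell marker rule, TACI was at 157 and 83.5 CPM. Siglech, a marker of the pDC gate, fell in the same cells from 948 to 527 CPM, and Lyz2 rose from 128 to 2090 CPM. The part of this shift in the TACI ratio was not tested. The myeloid cells in no finer gate had 61.6 CPM [51.7-72.8] and 39.3 CPM [33.1-46.2], a log2 ratio of -0.64, where 3.84% of genes were called lower; it was -0.38 thinned and -0.28 with the mean of each cell's CPM. Macrophages had 25.6 and 21.9 CPM, cDC2 had 53.9 and 56.7 CPM, and cDC2 were 2.10-fold [1.12-3.97] and 2.59-fold [1.75-3.86] above macrophages. Over the same 21 gates TACI had enough UMIs in 19, was called lower in 3 and higher in 0. The share of all genes called lower in those gates ran from 1.65% in Fcer2a-positive B cells to 13.6% in germinal-centre B cells.

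TACI also separated T-cell gates. Regulatory T cells had 28.7 CPM [21.2-37.9] and 32.0 CPM [26.1-38.8], and CD4 T cells 24.9 CPM [21.4-28.9] and 22.7 CPM [19.5-26.2]. CD8 T cells had 8.82 CPM [7.44-10.4] and 6.67 CPM [5.30-8.30]. Regulatory cells were 3.25-fold [2.30-4.52] above CD8 cells in WT NOD and 4.79-fold [3.547-6.501] above them in the other library, and CD4 cells 2.83-fold [2.26-3.55] and 3.40-fold [2.60-4.47]. Thinned shares were 4.10% and 6.53% of regulatory cells, 5.12% and 4.01% of CD4 cells, and 2.16% and 1.66% of CD8 cells. Regulatory and CD4 cells did not differ from each other beyond counting error in WT NOD, at 1.15-fold [0.819-1.59]. In the library labelled NOD.Cxcl16-/- regulatory cells were 1.41-fold [1.10-1.81] above CD4 cells. Gamma-delta T cells had 9.59 and 5.89 CPM from 9 and 5 UMIs, at 1.09-fold [0.487-2.12] and 0.882-fold [0.279-2.14] the CD8 level, and both intervals include 2-fold differences either way.

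**Figure D3:**
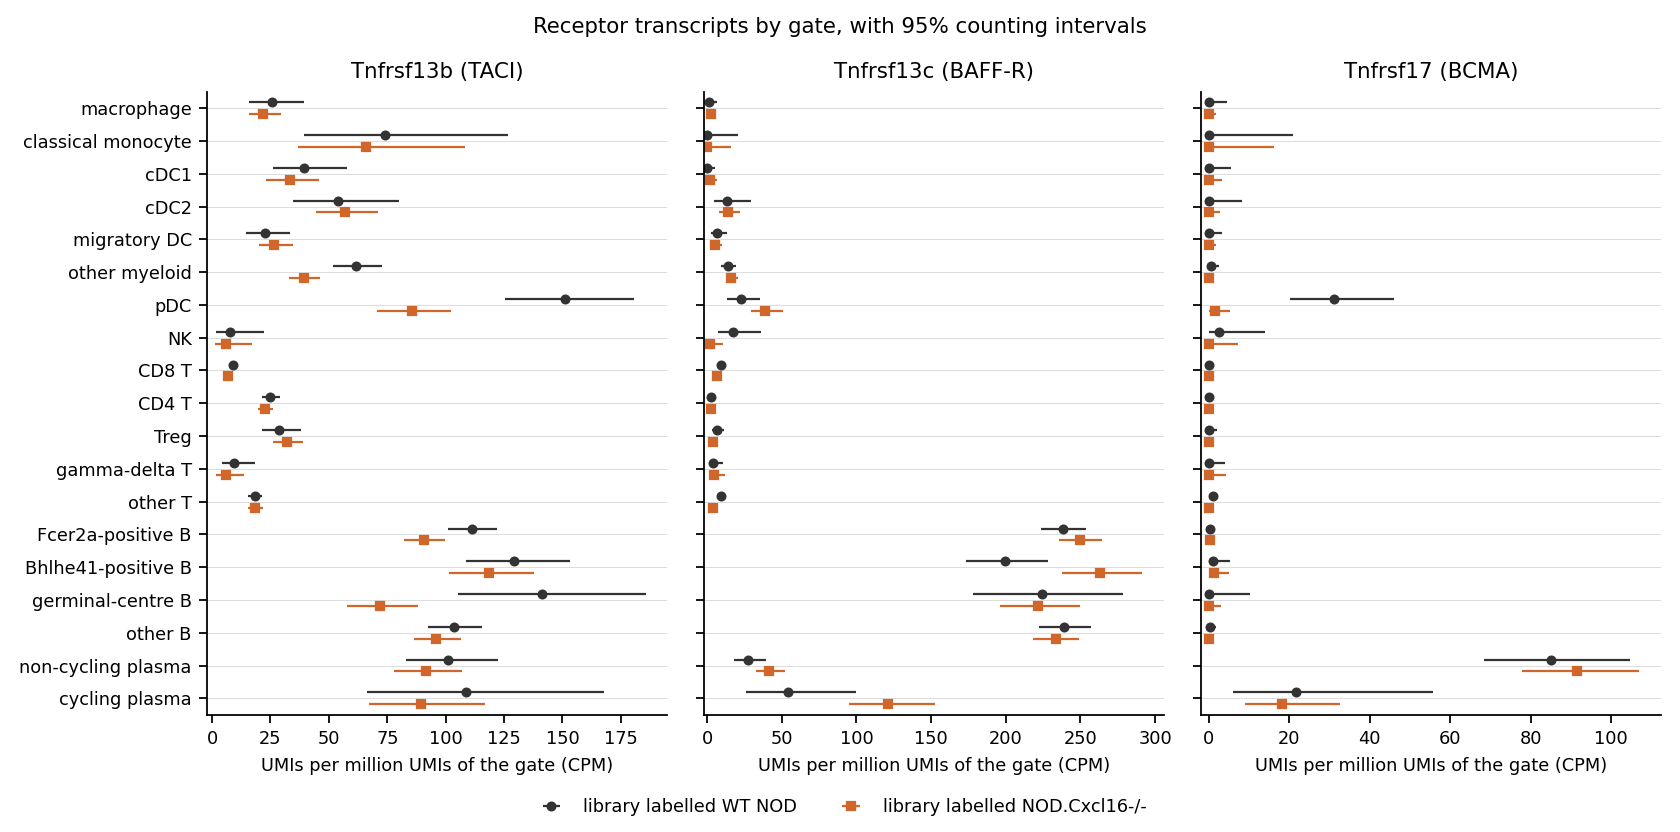
Level of each receptor in CPM (horizontal axes, each with its own range) by gate, for the library labelled WT NOD (dark circles) and the library labelled NOD.Cxcl16-/- (orange squares), with 95% counting intervals. BAFF-R stood near 233 and 243 CPM in B cells, TACI was found in B, plasma, pDC, myeloid and CD4 T-cell gates, and the BCMA point of WT NOD pDC came from 4 cells that carried plasma-cell markers.

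BCMA was a transcript of plasma cells, and its level there did not differ between the libraries beyond counting error. Tnfrsf17 (ENSMUSG00000022496, chr16:11313812-11320074, plus strand) had 94 UMIs in 29 of 60 WT NOD plasma cells, a level of 75.7 CPM [61.2-92.7]. It had 169 UMIs in 44 of 103 plasma cells of the library labelled NOD.Cxcl16-/-, a level of 72.6 CPM [62.0-84.4]. The log2 ratio was -0.06, with an interval of -0.43 to 0.32. B cells had 3 UMIs in each library, or 0.353 and 0.271 CPM, and plasma cells were 215-fold [71.3-1060] and 268-fold [90.1-1311] above them. The share of B cells with a UMI was 0.171% and 0.149%, against 48.3% and 42.7% of the more deeply sequenced plasma cells.

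Cycling plasma cells had less BCMA than non-cycling ones in both libraries. Their levels were 21.8 CPM [5.93-55.7] and 18.3 CPM [9.11-32.7], against 85.1 CPM [68.4-105] and 91.5 CPM [77.8-107]. The folds were 0.256 [0.0682-0.677] and 0.199 [0.0976-0.367]. Thinned to 2000 UMIs per cell, the log2 ratio of cycling over non-cycling cells in WT NOD turned from -1.92 to 0.11, with 1 of 6 cycling cells still positive. BCMA was found in 1 of 6 and 2 of 20 cycling plasma cells, and in 28 of 54 and 42 of 83 non-cycling ones. Without immunoglobulin and T-cell receptor genes in the total the levels were 26.4 and 20.8 CPM against 185 and 194 CPM. In the library labelled NOD.Cxcl16-/-, 10 of the 11 UMIs came from a single cycling cell. BAFF-R leaned the other way, with cycling over non-cycling folds of 1.98 [0.862-4.19] and 2.90 [2.07-4.08], while those of TACI were 1.07 [0.631-1.74] and 0.979 [0.705-1.34].

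Of the other lineage gates, the pDC gate was the only one with more than 10 BCMA UMIs, with 25 UMIs in 4 of 84 WT NOD cells and 2 UMIs in 1 of 94 cells of the other library. All of these UMIs lay in the 4 and 5 pDC-gated cells that also passed the plasma-cell marker rule. Those 4 WT NOD cells had 33614 CPM of Jchain and 103 CPM of Siglech, and the remaining 80 had 7.201 CPM of Jchain, 948 CPM of Siglech and 0 BCMA UMIs. BAFF-R in all pDC was at 22.5 CPM from 18 UMIs and 39.0 CPM from 53 UMIs, a log2 ratio of 0.77, and 10.3% of genes were called higher in pDC. Without the cells with plasma markers the ratio was 0.28, from 23.0 and 28.1 CPM. With 1 more marker needed per lineage it was -0.28, and with thinned cells -0.27. The TACI ratio without those cells was -0.90.

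Many single cells had UMIs of 2 receptors. Among B cells, 418 of 1758 and 494 of 2020 had UMIs of both BAFF-R and TACI, 613 and 770 of BAFF-R alone, 224 and 218 of TACI alone, and 503 and 538 of neither. Among plasma cells, 24 of 60 and 39 of 103 had both BCMA and TACI, 17 and 45 TACI alone, and 5 in each library BCMA alone. BCMA and BAFF-R met in 7 of 60 and 21 of 103 plasma cells. Detection depends on depth, so a cell with a UMI of neither may still express the gene.

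**Figure D4:**
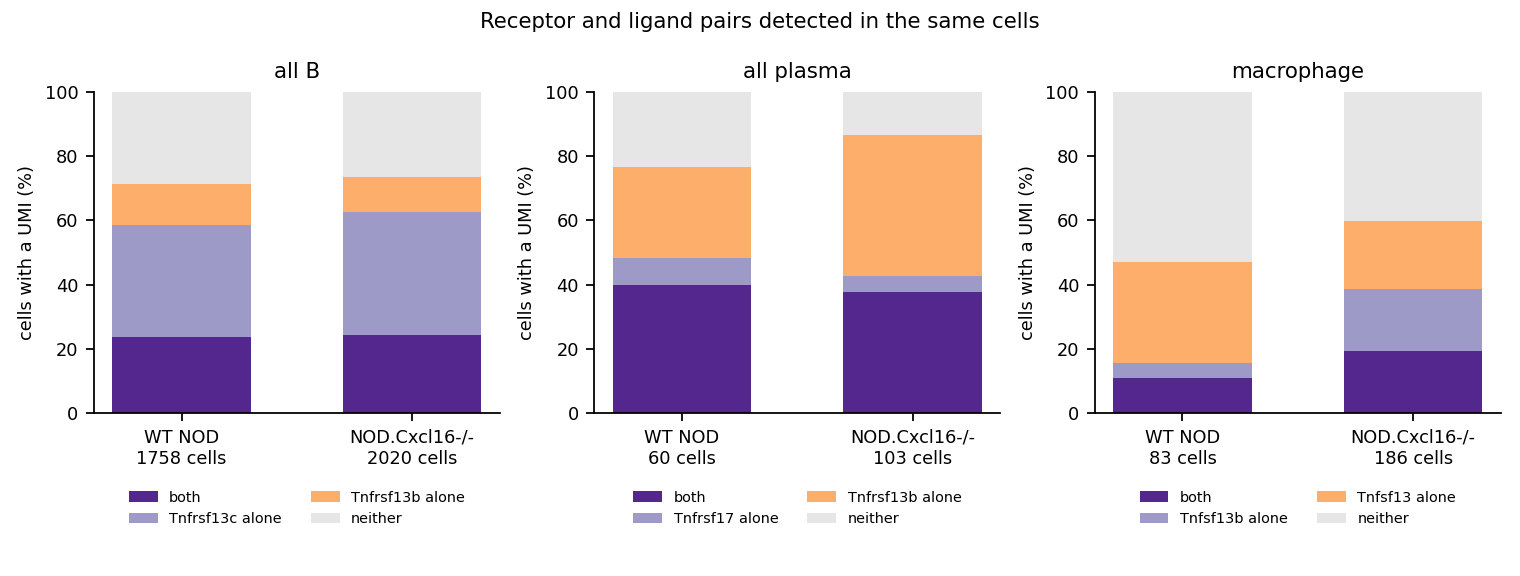
Share of cells (vertical axis, percent) with a UMI of both genes, of either alone or of neither, in each library: BAFF-R and TACI in B cells, BCMA and TACI in plasma cells, BAFF and APRIL in macrophages. Both were detected in 23.8% and 24.5% of B cells, 40.0% and 37.9% of plasma cells, and 10.8% and 19.4% of macrophages.

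**Figure D5:**
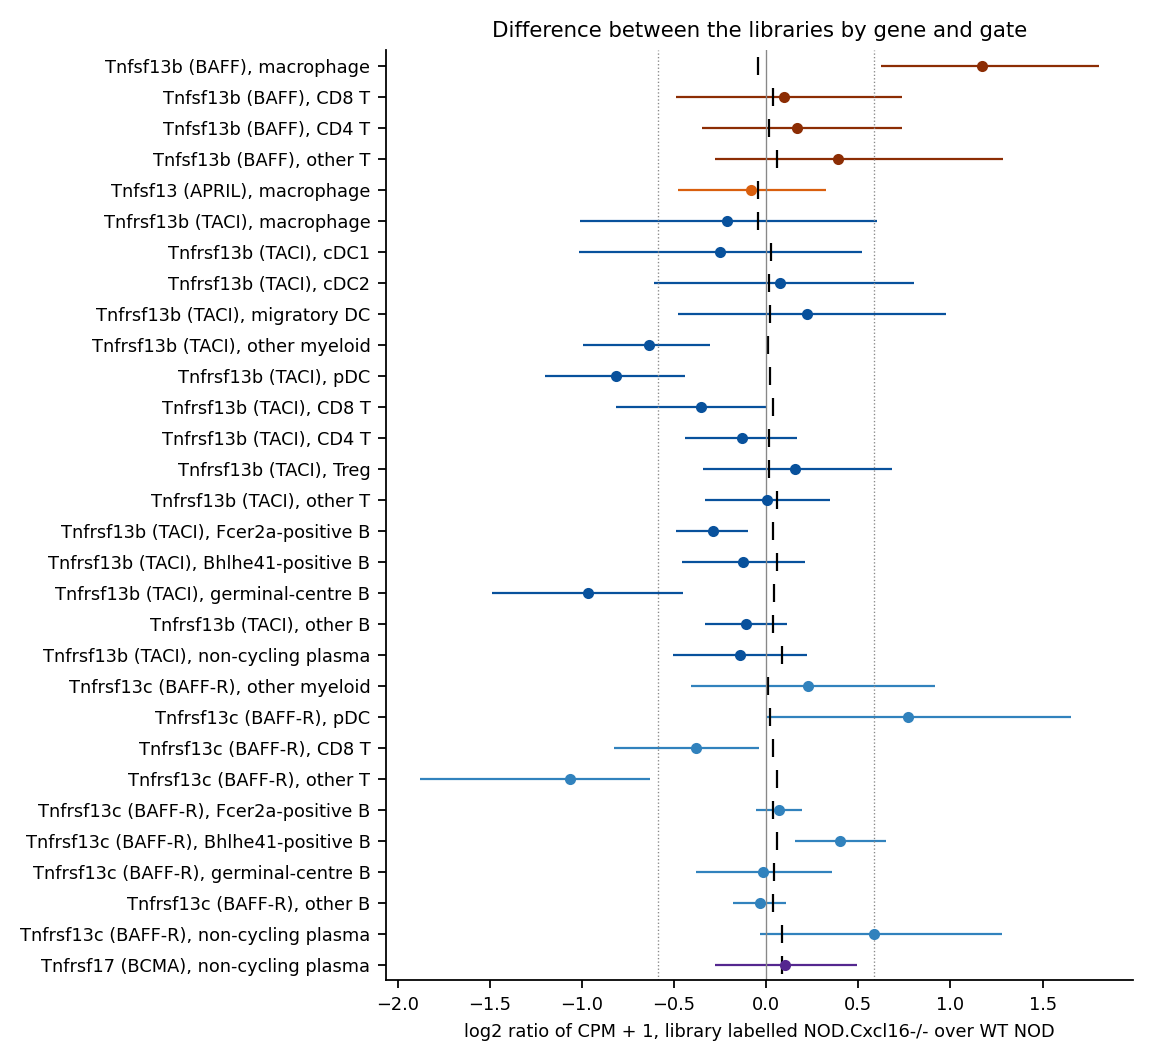
Log2 ratio of CPM + 1 between libraries (horizontal axis, library labelled NOD.Cxcl16-/- over WT NOD) for each gene and gate with at least 50 UMIs, the totals over all T, B, plasma and myeloid cells left out; bars are counting intervals, black ticks the median over all genes of the gate, and dotted lines 1.5-fold. BAFF in macrophages, at 1.17, is the highest point, and BAFF-R in the T cells of no finer gate, at -1.07, the lowest.

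Of the 29 genes tested in B cells over 3 lists of pathway genes 1 was called, in a gate where 3.75% of all genes were called higher and 1.91% lower, so this count is near that of genes at large. Of 8 genes of noncanonical NF-kB signalling, all 8 were tested and 0 were called in either direction, with a median log2 ratio of 0.00 beside 0.04 over all genes. Traf3, the adaptor that holds this pathway off, was at 85.9 and 87.7 CPM, and Nfkb2, whose product is cleaved by it, at 53.1 and 56.5 CPM. Map3k14 (NIK, its kinase) was at 21.9 and 22.7 CPM. Of 10 survival and response genes, 1 was called higher, Bcl2l1 (Bcl-xL), at 2.35 CPM from 20 UMIs and 4.52 CPM from 50 UMIs. The anti-apoptotic Bcl2 was at 111 and 81.2 CPM, a log2 ratio of -0.44 [-0.58 to -0.31], and Mcl1, needed for plasma-cell survival, at 523 and 477 CPM. In this list 3 genes had counting intervals above 0 and 4 below it. The share of all genes with such intervals is not given here, so this count is not a result about the list. Besides Bcl2l1, Bcl2a1b and Bcl2a1d lay above 0, at 0.25 [0.14 to 0.37] and 0.33 [0.19 to 0.47]. Cr2, the complement receptor CD21, and Icosl, a costimulatory ligand, lay below it with Bcl2 and Mcl1, at -0.20 and -0.34. Of 12 genes for ligand processing, receptor shedding, co-receptors and adaptors, 11 were tested and 0 were called, with 2 intervals above 0; they include Furin, which cleaves both ligands, at 12.5 and 11.2 CPM, and Adam10, which sheds TACI, at 62.9 and 58.2 CPM.

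In plasma cells, 0 of the 5 tested NF-kB genes were called. Among the 5 tested survival genes, Bcl2a1b and Bcl2a1d were called higher, with log2 ratios of 0.90 and 1.57, and the kinase gene Pim2 lower, at -0.71. The Bcl2a1 genes are near-identical copies, so the division of reads between them is uncertain. Among the 7 tested processing and adaptor genes 2 were called higher, of which the adaptor gene Traf5 had a log2 ratio of 0.91. Sdc1 (CD138), a co-receptor that binds APRIL on plasma cells and one of the markers of this gate, was at 130 and 94.0 CPM. Mcl1 was at 371 and 356 CPM. These counts of 4 higher and 1 lower stand beside 23.9% of genes called higher and 4.4% called lower in plasma cells.

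In macrophages, where 7.62% of all genes were called higher and 7.49% lower, 1 of the 25 genes tested over the same 3 lists was called, which is no more than genes at large. None of 8 NF-kB genes and none of the 10 tested processing genes were called. Furin was at 45.1 and 35.2 CPM, a log2 ratio of -0.35 [-0.96 to 0.26]. Of 7 tested survival genes Bcl2 was called higher, at 15.9 CPM from 13 UMIs and 34.2 CPM from 67 UMIs. Mcl1, Bcl2a1a, Bcl2a1d and Cd40 had intervals below 0, with log2 ratios from -0.35 to -0.21. The share of all genes with such intervals is not given here either. Tnfsf12 (TWEAK), the gene next to Tnfsf13, was at 47.6 and 54.6 CPM, and the genes that overlap Tnfsf13 overlap it too. Its receptor Tnfrsf12a was called higher, as 7.62% of genes were, at 24.4 CPM from 20 UMIs and 43.4 CPM from 85 UMIs.

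The genes most like each member were sought over 17 gates, by Pearson's correlation of log2(CPM + 1), with CPM averaged over the libraries, among 10103 genes. These values describe gates of the same 2 libraries and have no p-value. BAFF was most like Il18, Vcam1, Rbm7, Gdf15 and Slc48a1, with r from 0.78 to 0.85. APRIL was most like Clec4e, Fcgr1, Acod1, Tgfbi and Cxcl1, with r from 0.97 to 0.98. TACI was most like Rasgrp3, Cacna1e, AC133103.1, Myo5a and Mef2c, with r from 0.86 to 0.89. BAFF-R was most like Ms4a1, Ebf1, Cecr2 and Ctso (0.94 to 0.96), and BCMA most like Jchain, Fkbp11, Spcs3, Derl3 and Xbp1 (0.91 to 0.94). Ms4a1, Ebf1, Jchain, Fkbp11, Derl3, Xbp1 and Fcgr1 had been used to define gates, so their likeness follows in part from the gating.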

How the data were processed

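The authors deposited, for each library, a gene by barcode matrix of UMI counts; per the submitters' processing notes it was made with Cell Ranger 7.0.1 and mm10. Barcodes with fewer than 500 genes or more than 10% mitochondrial UMIs were removed, as were 11.1% and 8.44% of barcodes with the highest doublet scores (simulated doublets, a share of 0.8% per 1000 barcodes). Libraries held 13859 and 10554 barcodes and 93553185 and 98681133 UMIs. Gates rest on counted marker genes. Ratios between libraries had 1 CPM added and were formed in gates of at least 30 cells; 1.5-fold calls needed 50 UMIs. Intervals of ratios are exact conditional binomial intervals of the ratio without the 1 CPM. The fold calls were tested on simulated Poisson counts. These hold no added spread between cells or animals, so that spread was not covered. Genes were named from the 5 members in every gate, 32 genes of 4 lists, and for each member the 5 genes most like it, with at least 200 UMIs in each library and no immunoglobulin or T-cell receptor gene. One gene called in plasma cells and 1 of the most alike genes are not named here. The members and lists were chosen with earlier results of these data known. Gene positions are from GENCODE M21 (GRCm38), which holds 32158 of the 32285 gene IDs. No protein sequences were used here. Python 3.11.15, numpy 2.4.6, scipy 1.17.1, pandas 2.3.3 and scikit-learn 1.9.0 were used.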

Additional observations from a re-analysis of the deposited data

Results flagged for a closer look

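The Tnfrsf13c (BAFF-R) log2 ratio of the library labelled NOD.Cxcl16-/- over WT NOD pointed in opposite directions in different gates, with counting intervals on opposite sides of 0. It was 0.40 in Bhlhe41-positive B cells and 0.77 in pDC, and it was -0.38 in CD8 T cells and -1.07 in T cells of no finer gate. With cells thinned to 2000 UMIs, the value was -0.27 in pDC and -0.39 in T cells of no finer gate. With 1 more marker needed per lineage the pDC value was -0.28, and without pDC that pass the plasma-cell marker rule it was 0.28. The direction in pDC thus depended on the processing. The difference between gates was not tested. The level in the T-cell gates was under 10 CPM, against 199 CPM or more in B-cell gates.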

How the results depend on the processing

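No paired analysis was possible because each group has 1 library. The ratios between libraries that the account leads with kept their side of 1.5-fold under every alternative run: BAFF in macrophages ranged from 1.06 to 1.37 on the log2 scale, APRIL in macrophages from -0.32 to 0.07, BAFF-R in B cells from -0.02 to 0.07, TACI in B cells from -0.29 to -0.16, and BCMA in plasma cells from -0.38 to 0.19. Keeping doublets, a minimum of 200 genes, leaving out shared barcodes, adding 0.1 CPM or scaling to the median gene moved no ratio between libraries out of its counting interval, although keeping doublets put BAFF-R in plasma cells at 0.56 and in all T cells at -0.56, under 1.5-fold. The values listed next changed sign under an alternative, and the cause was not tested. With cells thinned to 2000 UMIs, the log2 ratio of TACI in germinal-centre B cells was 0.018 (-0.97 unthinned), that of BAFF-R in pDC was -0.27 (0.77), and that of BCMA in cycling over non-cycling WT NOD plasma cells was 0.11 (-1.92). With 1 more marker needed per lineage, BAFF-R in pDC was -0.28. With the mean of each cell's CPM, TACI in the myeloid cells of no finer gate over macrophages in WT NOD was -0.27 (1.23). Of the ratios under 1.5-fold, 9 passed it under at least 1 setting. Examples were TACI in macrophages at -1.68 with the mean of each cell's CPM (-0.22) and TACI in cDC1 at 1.34 when thinned (-0.25). Of those called, 8 fell under it, and these were all the called ratios of BAFF-R and TACI. The 2 called ratios of BAFF, in macrophages and in all myeloid cells, stayed past it. All myeloid cells include the macrophages. Among ratios called, BAFF-R in plasma cells ranged from 0.53 to 1.54, BAFF-R in all T cells from -1.05 to -0.16, and TACI in pDC from -0.90 to -0.22. Counting cells of more than 1 lineage with their leading one, leaving pDC with plasma markers out, and leaving immunoglobulin and T-cell receptor genes out of the total were chosen after seeing the data.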
